A study of Mus musculus with 12 samples.

Results

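Transcripts of 10 lysosomal genes were measured by RNA-seq in the gastrocnemius muscle of 12 mice from a model of facioscapulohumeral muscular dystrophy (FSHD). The genes were chosen by name, as Ctsb, Ctsd, Ctsk, Ctsl, Ctss, Ctsz, Lgmn, Lamp1, Lamp2 and Grn, and each name matched 1 of the 37748 genes in the count table. All 10 passed the filter on low counts that left 16679 genes to test. The 3 control mice were ACTA1-MCM/+, with a tamoxifen-inducible Cre recombinase (MerCreMer) made in skeletal muscle, and the 3 FLExDUX4/+ (FLExD/+) mice had no Cre and a DUX4-fl transgene at the Rosa26 locus that Cre turns into its expressed orientation. Both of these groups are labelled as not given tamoxifen (TMX). The moderate and severe models, with 3 mice each, were FLExDUX4/+;MCM/+ and carried both transgenes. They received 1 intraperitoneal injection of 5 mg/kg TMX and 2 injections of 10 mg/kg TMX on consecutive days, respectively. Muscles of these models were taken on day 9, and mice of all groups were 13 weeks old. Recombination in these models is mosaic, so a muscle holds nuclei with and without DUX4-fl. Because no control of this experiment was labelled as given TMX, the effects of TMX, of carrying both transgenes and of DUX4-fl cannot be told apart, and neither can differences in dose and in number of injections.

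Lysosomes are acidic organelles in which proteins, lipids and sugars delivered by endocytosis, phagocytosis or autophagy are degraded. Cathepsins are their main proteases, are made as inactive precursors and are activated by cleavage in the acidic lumen, while LAMP proteins coat the inner face of the limiting membrane. Transcription factors of the TFEB family activate many lysosomal genes through E-box-like sites in their promoters, and macrophages, which clear debris from damaged muscle, are rich in cathepsins. Among the genes studied here, Ctsb, Ctsk, Ctsl, Ctss and Ctsz encode cysteine cathepsins and Ctsd an aspartic protease. Lgmn encodes legumain, an asparaginyl endopeptidase that processes cathepsins. Lamp1 and Lamp2 encode the major lysosomal membrane glycoproteins, and Grn encodes progranulin, a secreted protein that is carried to lysosomes and cut into granulins.

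Sequence before a RefSeq start is shown for Lamp1, Ctsd and Ctss. Lamp1 was the only gene of the 10 that was not called in any comparison, and Ctss had the largest fold change. Ctsd and Lamp1 were the only ones with more than 1 copy of the E-box core CACGTG. Each stretch is the 250 bases before a RefSeq start on GRCm38.p6, written 5′ to 3′ on the strand of the gene. Lamp1 is from chr8:13158911-13159160 (plus strand), Ctsd from chr7:142387828-142388077 (minus strand) and Ctss from chr3:95526536-95526785 (plus strand). In GENCODE M21, the annotation used here for gene positions, Ctsd starts further upstream, at 142388038. Most of the Ctsd stretch thus lies inside that gene span. Capitals mark CACGTG, which reads the same on both strands.
Lamp1: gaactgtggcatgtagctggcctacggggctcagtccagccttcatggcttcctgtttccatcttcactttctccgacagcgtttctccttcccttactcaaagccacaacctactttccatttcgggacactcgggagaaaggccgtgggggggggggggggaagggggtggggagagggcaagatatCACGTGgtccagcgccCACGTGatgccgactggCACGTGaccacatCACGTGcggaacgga
Ctsd: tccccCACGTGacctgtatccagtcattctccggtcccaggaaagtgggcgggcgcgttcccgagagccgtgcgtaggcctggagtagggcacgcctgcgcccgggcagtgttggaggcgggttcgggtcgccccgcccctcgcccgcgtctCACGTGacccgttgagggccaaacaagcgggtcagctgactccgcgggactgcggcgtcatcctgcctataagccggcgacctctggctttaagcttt
Ctss: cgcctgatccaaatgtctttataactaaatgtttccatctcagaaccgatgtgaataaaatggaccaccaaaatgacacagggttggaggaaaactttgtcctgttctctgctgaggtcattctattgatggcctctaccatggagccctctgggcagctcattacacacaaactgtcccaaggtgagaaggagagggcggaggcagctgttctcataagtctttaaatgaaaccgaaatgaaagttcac

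The RefSeq table held 10 start windows for 9 of the genes, each from 250 bases before to 50 bases after a start, and none for Ctsb. Lamp1 had 4 copies of CACGTG, which began 61, 45, 28 and 15 bases before the start, and Ctsd had 2, at 245 and 98 bases. The Ctsd copy at 98 bases lies within the longer palindrome TCACGTGA. Ctsl had 1 copy, 236 bases before its start, and 1 of the 2 windows of Lgmn had 1, at 49 bases. The Ctsl and Lgmn copies and the Ctsd copy at 98 bases lie inside the GENCODE M21 spans of their genes, which begin further upstream. No copy was found in the windows of Ctsk, Ctss, Ctsz, Lamp2 or Grn. Of all 32851 windows in the table, 7.15% held at least 1 copy of CACGTG, 0.594% at least 2 and 0.0244% at least 4, and 0.974% held TCACGTGA. These matches describe letters in a window and are not evidence of binding.

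Total expected counts ranged from 23796902 to 29136403 per mouse, and the 10 genes had between 63 and 49805 counts in any 1 mouse. Levels are given in CPM, the counts divided by library sizes that were scaled by edgeR's TMM factors, which were between 0.706 and 0.760 in the 2 single-transgenic groups, between 1.06 and 1.13 in moderate and between 1.69 and 1.87 in severe mice. The tissue was checked with 10 markers of adult muscle fibers, whose transcripts made up a mean of 9.35% of all transcripts in ACTA1-MCM/+ mice, 8.36% in FLExD/+ mice, 4.99% in moderate and 1.77% in severe mice. The mouse annotation has no DUX4-fl, and induction was checked with its target Wfdc3, which was at 0.227 ± 0.137 CPM (SD, n = 3) in ACTA1-MCM/+ mice, 0.211 ± 0.169 in FLExD/+ mice, 76.3 ± 13.4 in moderate and 87.7 ± 26.9 in severe mice. These values are of the entry ENSMUSG00000076434, and another entry named Wfdc3, ENSMUSG00000039951, was not used. Calls required an adjusted p under 0.05 (edgeR's quasi-likelihood test, Benjamini-Hochberg over all tested genes) together with a log2 fold change of at least 0.5 in either direction.

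Of the 10 genes, 7 were higher in moderate mice than in ACTA1-MCM/+ muscle, 9 were higher in severe mice, and 0 were lower in either by edgeR, DESeq2 or limma, with 0 at an unadjusted p under 0.05 in that direction in edgeR. Ctss rose most, followed in severe mice by Grn and Lgmn, and Lamp1 was the gene that was not called. Of all tested genes, 24.4% were called higher and 17.0% lower in moderate mice, and 32.9% and 27.9% in severe mice. The median log2 fold change of the 10 genes was 1.17 in moderate and 2.14 in severe mice, beside 0.04 and 0.08 over all tested genes. The severe model exceeded the moderate model at 8 of the 10 genes, where 17.6% of all tested genes were called higher and 18.8% lower. Between FLExD/+ and ACTA1-MCM/+ mice 0 of the 10 genes were called by edgeR, DESeq2 or limma and 0 had an unadjusted p under 0.05 in edgeR, where 0.00600% of all genes were called.

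**Figure D1:**
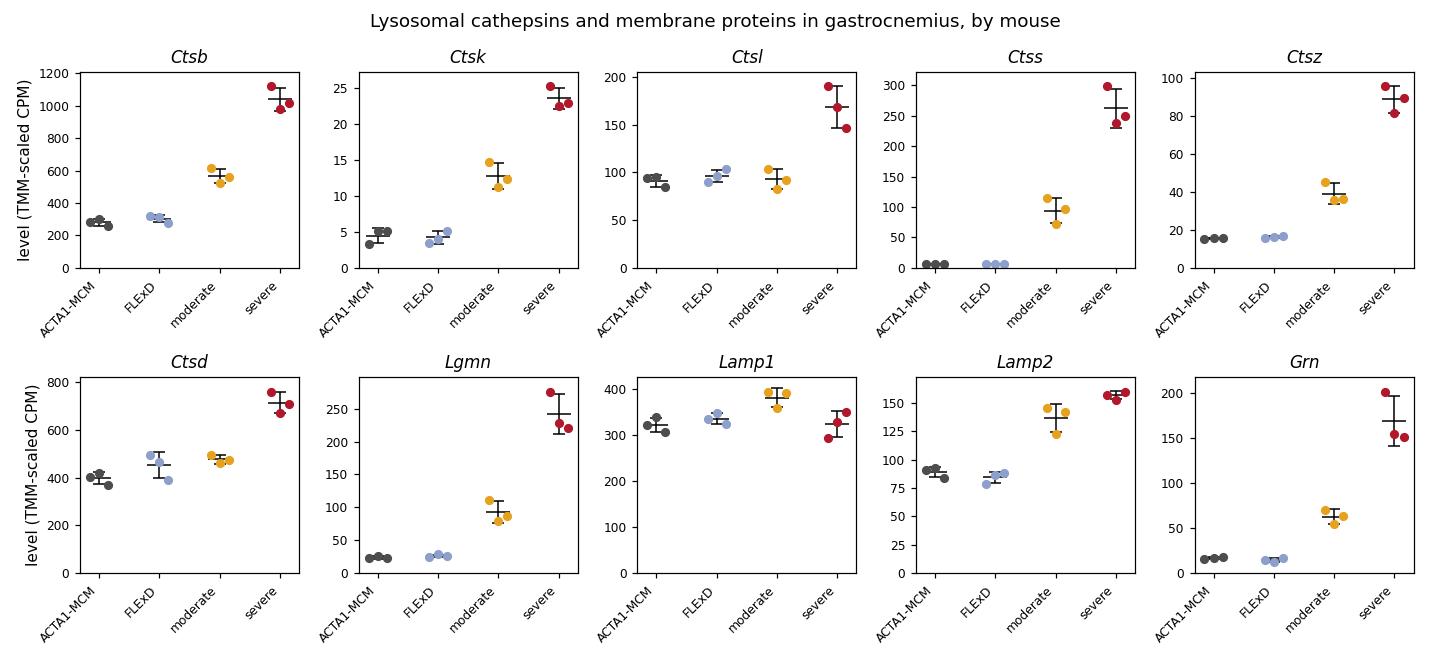
Level of each gene (y axis, TMM-scaled CPM on a linear axis from 0) in each of the 12 mice by group (x axis), with the group mean and SD as black bars. In Ctss, Ctsz, Ctsb, Ctsk, Lgmn, Grn and Lamp2 the moderate mice lie above both single-transgenic groups and the severe mice above the moderate mice. The Lamp1 values of the severe mice overlap those of the controls.

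Ctss, the cysteine cathepsin of antigen-presenting cells that trims the invariant chain of MHC class II, lies on chromosome 3 from 95526786 to 95556403. Its levels were 6.63, 6.41 and 6.12 CPM in ACTA1-MCM/+ mice and 6.20, 7.09 and 6.12 CPM in FLExD/+ mice. They were 114, 72.0 and 96.1 CPM in moderate and 298, 238 and 250 CPM in severe mice. Both groups with TMX were wholly above those without it, and the severe mice wholly above the moderate mice. The log2 fold change against ACTA1-MCM/+ was 3.88 in moderate mice (standard error, SE, 0.16, adjusted p = 1.08e-09, edgeR), a 14.7-fold rise. In the severe model it was 5.36 (SE 0.17, adjusted p = 4e-11), a 41-fold rise.

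Ctsk, the collagen-degrading cathepsin best known from osteoclasts, is the upstream neighbour of Ctss on the same strand, from 95499256 to 95509362, with 17423 bases and no other protein-coding gene between them. It was the lowest of the 10 genes in TPM. Its levels were 3.26, 5.11 and 5.07 CPM in ACTA1-MCM/+ mice and 3.44, 4.07 and 5.16 CPM in FLExD/+ mice. The moderate mice had 14.7, 11.2 and 12.4 CPM and the severe mice 25.2, 22.5 and 22.9 CPM, with no overlap between these groups or with the controls. Its log2 fold change was 1.51 (SE 0.17, adjusted p = 5.27e-06) in moderate and 2.39 (SE 0.17, adjusted p = 1.64e-08) in severe mice. The neighbours thus moved in the same direction, Ctss by more than Ctsk in both models, although a difference between 2 genes was not tested.

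Ctsb, a broadly expressed cathepsin of lysosomal protein turnover on chromosome 14 from 63122462 to 63145923, was at 283, 302 and 256 CPM in ACTA1-MCM/+ mice and at 317, 314 and 277 CPM in FLExD/+ mice. Levels were 614, 525 and 559 CPM in moderate and 1120, 982 and 1020 CPM in severe mice. The log2 fold change was 1.01 (SE 0.11, adjusted p = 4.59e-06) in moderate and 1.90 (SE 0.12, adjusted p = 3.89e-09) in severe mice. The control, moderate and severe ranges did not overlap. Ctsz (cathepsin Z, a carboxypeptidase) on chromosome 2 from 174427493 to 174439039 was at 15.1, 15.9 and 15.6 CPM in ACTA1-MCM/+ mice and at 15.6, 16.1 and 17.0 CPM in FLExD/+ mice. It was at 45.3, 35.9 and 36.0 CPM in moderate and at 95.4, 81.3 and 89.4 CPM in severe mice. The log2 fold change of Ctsz was 1.33 (SE 0.10, adjusted p = 1.31e-07) in moderate and 2.51 (SE 0.10, adjusted p = 1.35e-10) in severe mice.

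Ctsl, the cathepsin of general lysosomal proteolysis on chromosome 13 from 64359337 to 64370890, differed from the other cysteine cathepsins in that it was called in severe mice alone. Its levels were 94.4, 94.7 and 84.2 CPM in ACTA1-MCM/+ mice and 90.3, 96.5 and 103 CPM in FLExD/+ mice. The moderate mice, at 104, 82.6 and 92.4 CPM, overlapped both, with a log2 fold change of 0.03 (SE 0.11, 95% interval -0.21 to 0.27, adjusted p = 0.852). The severe mice were at 190, 168 and 146 CPM, a log2 fold change of 0.88 (SE 0.11, adjusted p = 6.59e-06). The call in severe mice and its absence in moderate mice were themselves compared, as severe against moderate, with a log2 fold change of 0.85 (SE 0.11, adjusted p = 3.34e-05).

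Ctsd, the aspartic protease of the set, lies on chromosome 7 from 142375911 to 142388038 and was the most abundant of the 10 genes in control muscle in TPM. It was at 402, 420 and 371 CPM in ACTA1-MCM/+ mice and at 496, 468 and 391 CPM in FLExD/+ mice. The moderate mice had 497, 462 and 473 CPM, above the ACTA1-MCM/+ mice and overlapping the FLExD/+ mice, and the difference from ACTA1-MCM/+ was not called (log2 fold change 0.26, SE 0.11, adjusted p = 0.0617). The severe mice had 761, 673 and 710 CPM, a log2 fold change of 0.85 (SE 0.11, adjusted p = 1.08e-05). Of the 4 genes with an E-box core in their windows, Ctsd and Ctsl were thus called in severe mice alone, Lgmn in both models and Lamp1 in neither. Ctsk, Ctss, Ctsz, Lamp2 and Grn, which had no copy, were called in both models, and Ctsb had no window. These calls were made with TMM scaling. With library size alone, and with limma on log2(TPM + 1), all 10 genes were called higher in both models. A link between the core and the calls was not tested.

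Lgmn, on chromosome 12 from 102394084 to 102439813, was at 23.2, 26.7 and 22.7 CPM in ACTA1-MCM/+ mice and at 24.9, 28.5 and 25.4 CPM in FLExD/+ mice. It reached 111, 79.3 and 87.2 CPM in moderate and 276, 229 and 221 CPM in severe mice. The log2 fold change was 1.93 (SE 0.13, adjusted p = 5.35e-08) in moderate and 3.32 (SE 0.14, adjusted p = 1.61e-10) in severe mice, rises of 3.82-fold and 9.99-fold. Grn, on chromosome 11 from 102430315 to 102437048, was at 15.1, 17.0 and 17.9 CPM in ACTA1-MCM/+ mice and at 14.6, 12.1 and 16.3 CPM in FLExD/+ mice. It reached 70.3, 54.5 and 63.0 CPM in moderate and 201, 154 and 151 CPM in severe mice. Its log2 fold changes of 1.91 (SE 0.14, adjusted p = 1.03e-07) and 3.34 (SE 0.15, adjusted p = 2.26e-10) lay within a standard error of those of Lgmn in both models.

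The 2 membrane proteins differed in their calls, although a difference between them was not tested. Lamp2, on the X chromosome from 38401357 to 38456454 and needed for the fusion of autophagosomes with lysosomes, was at 91.3, 92.3 and 84.2 CPM in ACTA1-MCM/+ mice and at 78.5, 86.4 and 88.2 CPM in FLExD/+ mice. It was at 146, 123 and 142 CPM in moderate and at 157, 153 and 160 CPM in severe mice, log2 fold changes of 0.62 (SE 0.09, adjusted p = 4.99e-05) and 0.81 (SE 0.09, adjusted p = 1.55e-06). Between severe and moderate its difference of 0.19 (SE 0.09, adjusted p = 0.0833) was not called, although the 2 groups did not overlap.

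Lamp1, on chromosome 8 from 13159161 to 13175338, was at 322, 338 and 307 CPM in ACTA1-MCM/+ mice and at 334, 347 and 323 CPM in FLExD/+ mice. It was at 394, 358 and 391 CPM in moderate and at 293, 329 and 349 CPM in severe mice. The moderate mice were thus the highest of the 12, and the severe mice spread over the control range. No comparison was called, with log2 fold changes of 0.24 (95% interval 0.03 to 0.45, adjusted p = 0.0525) in moderate mice, 0.01 (95% interval -0.21 to 0.22, adjusted p = 0.958) in severe mice and -0.23 (95% interval -0.45 to -0.02, adjusted p = 0.0613) between severe and moderate. These values for Lamp1 depend on the scaling, because with library size alone they were 0.85, 1.31 and 0.46, with the first and second called, beside medians over all tested genes of 0.65, 1.39 and 0.72. Relative to that median, the severe model stood at -0.07 with TMM scaling, at -0.08 with library size alone and at 0.38 in TPM, where the median over all genes was 0.79.

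**Figure D2:**
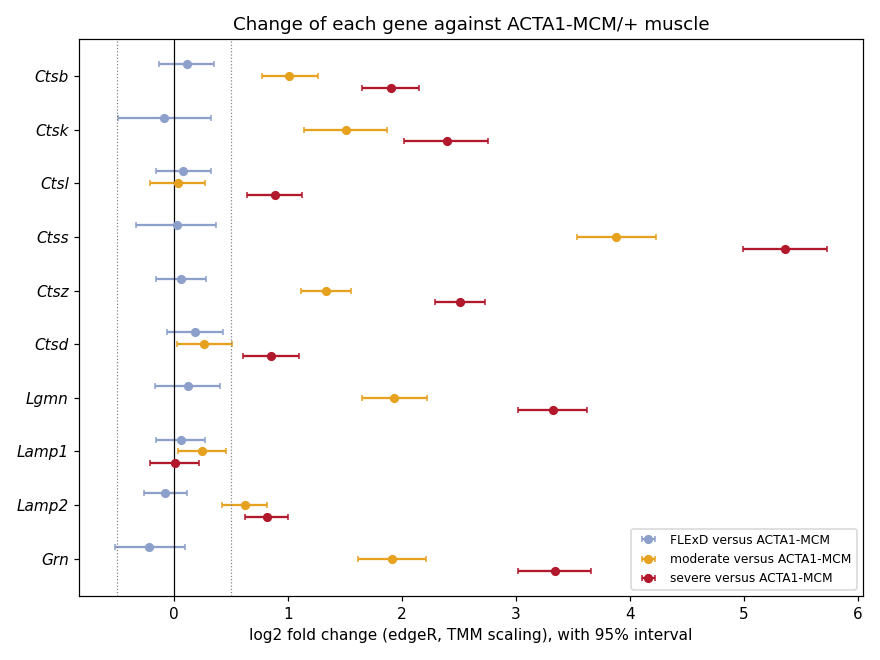
Log2 fold change of each gene against ACTA1-MCM/+ mice (x axis, edgeR with TMM scaling), with 95% intervals, for FLExD/+ (blue), moderate (orange) and severe (red) mice. Dotted lines mark the fold threshold of 0.5 in each direction, and Lamp1 is the gene whose 3 values all lie between them.

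In FLExD/+ muscle the 10 log2 fold changes against ACTA1-MCM/+ ran from -0.22 for Grn (95% interval -0.52 to 0.09) to 0.18 for Ctsd (95% interval -0.06 to 0.43). The FLExD/+ and ACTA1-MCM/+ mice overlapped at every one of the 10 genes, and the share of all tested genes that did so was not computed. The widest interval, that of Ctsk, ran from -0.49 to 0.32, so that a change of 2-fold was outside the interval for each gene.

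Between severe and moderate the 8 called genes differed by between 0.58 and 1.48 on the log2 scale. The log2 difference was 1.48 for Ctss (SE 0.14, adjusted p = 3.14e-06), 1.43 for Grn (SE 0.13, adjusted p = 3.05e-06), 1.39 for Lgmn (SE 0.13, adjusted p = 2.84e-06) and 1.18 for Ctsz (SE 0.10, adjusted p = 1.6e-06). It was 0.88 for both Ctsb and Ctsk, 0.85 for Ctsl and 0.58 for Ctsd (SEs 0.11 to 0.15, adjusted p at most 0.00072). On the log2 scale the step from moderate to severe was smaller than that from control to moderate for Ctss, Ctsk, Lgmn, Grn, Ctsz and Ctsb and larger for Ctsl and Ctsd, without a test of the 2 steps against each other. The order of mice within a group was compared between genes. Moderate mouse 1 had the highest and moderate mouse 2 the lowest level of all 10 genes, and severe mouse 1 had the highest level of 8. These were also the mice with the highest sum of macrophage markers in their groups (799 and 1590 CPM) and, for moderate mouse 2, the lowest (611 CPM). In the ACTA1-MCM/+ group it was the reverse, since mouse 2, highest at 8 genes, had the lowest sum (139 CPM) and mouse 3, lowest at 7, the highest (165 CPM). The order in the models was not particular to macrophage markers. Regenerating fiber markers also had their highest sums in moderate mouse 1 (580 CPM) and severe mouse 1 (1740 CPM), and their lowest moderate sum in mouse 2 (323 CPM). Adult fiber markers had their lowest sums in moderate mouse 1 (63600 CPM) and severe mouse 1 (9690 CPM). Which markers the 10 genes follow was not tested. No FLExD/+ mouse was highest or lowest at more than 5 genes.

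Levels of different genes were compared in TPM, which divide out transcript length. In ACTA1-MCM/+ muscle the order was Ctsd (mean 179 TPM), Lamp1 (136), Ctsb (127), Ctsl (63.5), Lamp2 (26.0), Lgmn (12.9), Ctsz (11.7), Grn (8.51), Ctss (4.62) and Ctsk (3.48), in which Lamp1 and Ctsb overlapped over mice, as did Lgmn and Ctsz. In the severe model it was Ctsb (mean 1080 TPM), Ctsd (749), Ctss (424), Lamp1 (306), Lgmn (293), Ctsl (269), Grn (160), Ctsz (155), Lamp2 (108) and Ctsk (41.9). There, the neighbours Lamp1 and Lgmn, Lgmn and Ctsl, and Grn and Ctsz overlapped. Ctss had thus gone from the ninth place to the third and Lamp2 from the fifth to the ninth. In the moderate model Ctsb (mean 359 TPM) was already above Ctsd (301), and Ctss (91.0) was level with Ctsl (90.6).

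Together the 10 genes made up 0.0572% of all transcripts in ACTA1-MCM/+ mice, 0.0606% in FLExD/+ mice, 0.128% in moderate and 0.359% in severe mice, as means of the summed TPM. The median of all tested genes was itself 0.79 higher in severe mice on the log2(TPM + 1) scale. In TMM-scaled CPM the sum of the 10 genes rose less, from 1250 ± 75.5 (SD, n = 3) in ACTA1-MCM/+ and 1340 ± 75.1 in FLExD/+ mice to 1950 ± 155 in moderate and 3190 ± 204 in severe mice. Their make-up also differed. Ctsd was 31.3% ± 0.105 (SD, n = 3) of the summed TPM of the 10 genes in controls and 20.9% ± 0.308 in severe mice, and Lamp1 was 23.7% ± 0.179 and 8.62% ± 1.31. Ctss was 0.808% ± 0.0301 and 11.8% ± 0.59, and Lgmn 2.26% ± 0.117 and 8.14% ± 0.422. The ranges of the 3 control and 3 severe mice were apart for each of these 4 genes, and with 3 mice a group an exact two-sided permutation test cannot give a p under 0.10.

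**Figure D3:**
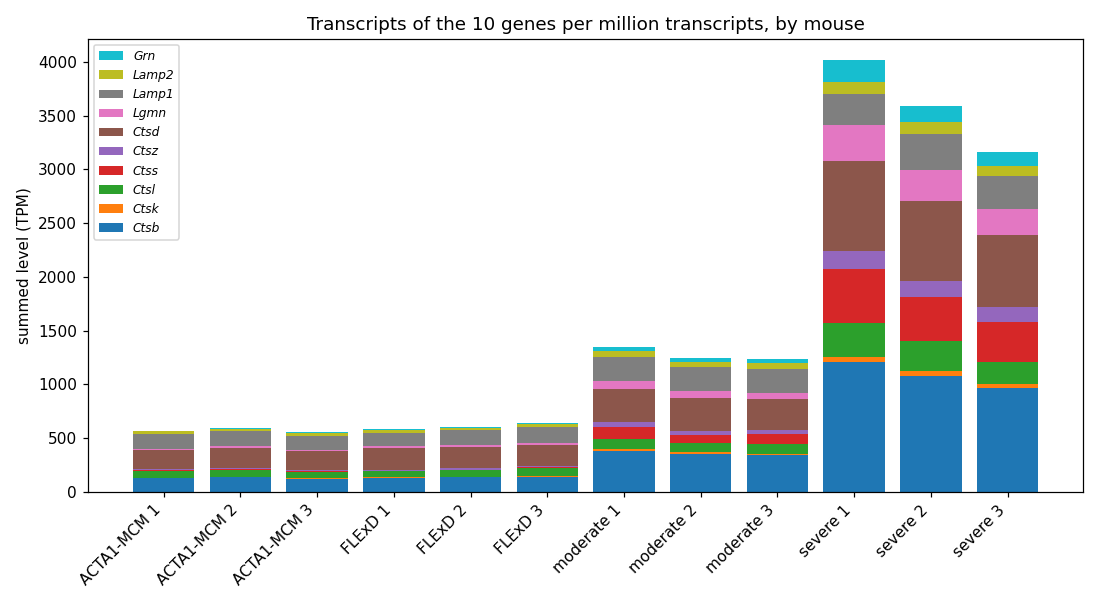
Summed level of the 10 genes in TPM (y axis, from 0) in each of the 12 mice (x axis), with the part of each gene in colour. The sums lie between 555 and 639 TPM in the 6 single-transgenic mice, between 1230 and 1350 TPM in moderate and between 3160 and 4010 TPM in the severe mice, whereas in TMM-scaled CPM the mean sum was 1250 in ACTA1-MCM/+ and 3190 in severe mice.

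Markers of cell types were read beside these genes. Each count of markers here and in the next paragraph stands beside the share of all tested genes called. That share was 24.4% higher and 17.0% lower in moderate mice, and 32.9% and 27.9% in severe mice. All 14 macrophage markers were higher in both models, with a median log2 fold change of 2.58 in moderate and 3.79 in severe mice, and none was at 0 in any mouse. Their summed level ran from 139 to 165 CPM in ACTA1-MCM/+ mice, from 140 to 155 in FLExD/+ mice, from 611 to 799 in moderate and from 1470 to 1590 in severe mice. Per 100 CPM of summed macrophage markers, Grn was at 11.2 ± 0.866 CPM (SD, n = 3) in controls, 8.96 ± 0.19 in moderate and 11.1 ± 1.36 in severe mice, and Lgmn at 16.4 ± 2.73, 13.2 ± 0.627 and 15.9 ± 1.3. The same ratio was 4.33 ± 0.538, 13.3 ± 1.36 and 17.2 ± 1.34 for Ctss and 191 ± 32, 81.4 ± 4.54 and 68.6 ± 1.82 for Ctsb. In all, this ratio was wholly lower in severe than in ACTA1-MCM/+ mice for 7 of the 10 genes, wholly higher for Ctss and overlapping for Lgmn and Grn. Besides Ctsb, the means went from 270 to 47.1 for Ctsd, from 219 to 21.4 for Lamp1, from 61.9 to 11.1 for Ctsl, from 60.6 to 10.3 for Lamp2, from 10.5 to 5.84 for Ctsz and from 3.01 to 1.55 for Ctsk. A lower ratio is not particular to these genes, because it falls for any gene that rises less than the marker sum. The mean of that sum went from 149 to 1520 CPM, beside a median log2 fold change of 0.08 over all tested genes. The share of all tested genes with a wholly lower ratio was not computed. Lyz2, the lysozyme of macrophages, and Lilrb3, a leukocyte receptor, had the levels most like those of Ctss over the 12 mice (Pearson r of log2 CPM 0.999 for each), as a description of points that share their groups. The part of macrophages in these results was not tested, and in whole muscle more cells of a type and more RNA per cell cannot be told apart.

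Of 7 fibroblast markers, 4 were higher in each model and 1 was lower in severe mice, with sums from 656 to 1580 CPM in ACTA1-MCM/+ mice, 2340 to 2460 CPM in moderate and 3860 to 4980 CPM in severe mice. Of 4 tested neutrophil markers, 1 was higher in moderate and 3 in severe mice, and of 2 tested lymphocyte markers 0 and 1 were. In moderate mice the neutrophil count is near the 24.4% of all tested genes called higher there, and the lymphocyte count is below it. Neutrophil markers summed to at most 5.71 CPM in moderate and 10.5 CPM in severe mice, with 2 or 3 of the 7 at 0 in each mouse, and lymphocyte markers to at most 1.29 and 4.32 CPM. Of the 10 adult fiber markers, 8 were lower in moderate and 10 in severe mice, and the 4 markers of regenerating fibers were all higher in both. Their part in the results was likewise not tested.

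With TMM scaling, correlations over the 12 mice separate Lamp1 from the rest, as a description of mice that share their groups. They were not recomputed with library size alone or in TPM, where Lamp1 was called higher in both models like the other 9 genes. Pearson's r of log2 CPM between any 2 of the other 9 genes was between 0.686 and 0.996, and r of Lamp1 with them was between -0.356 and 0.290. The genes most like Lamp1 were Chmp1a, Fdx1 and Myeov2 (r from 0.943 to 0.955), whereas Lgmn was most like Clic1, Efhd2 and Tuba1b, and Grn most like Arpc2, Man2b1, a lysosomal mannosidase, and Tmem164 (r at least 0.996). Those most like Ctsb were Rrm2, Snx1 and Lgmn, and those most like Ctsz were Clic1, Eef1a1 and Lgmn (r at least 0.996). Ctsk was most like Tmem164, Lass6 and Ehd4, Ctsl like Hnrnpk, Hnrnpab and Daglb, Ctsd like Hist1h4h, Sf3a3 and Srsf3, and Lamp2 like Parp9, Ncf1 and Ifi204, with r from 0.968 to 0.994, and the third for Ctss was Hist1h3h (r = 0.998).

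The remaining lysosomal genes were read from lists of the same pathway, and each count stands beside the 24.4% higher and 17.0% lower of all tested genes in moderate and the 32.9% and 27.9% in severe mice. The placental cathepsins are given apart, under other observations. Of 7 further tested cathepsins outside the 10 genes, 4 were called higher and 0 lower in moderate mice, and 5 higher and 1 lower in severe mice, where the median log2 fold change was 0.90. The log2 fold change in severe mice was 2.85 for Ctsh, an aminopeptidase, 1.32 for Ctsc, which activates granule proteases, and 0.90 for Ctsa, which protects lysosomal glycosidases (SEs 0.08 to 0.16). At the low end, Ctso was at 0.61, Ctse at 0.48, which was not called, and Ctsf at -0.56, whose direction turned to 0.74 with library size alone. Of the 44 other hydrolases tested, 27 were higher and 2 lower in moderate and 29 higher and 5 lower in severe mice. Among the highest in severe mice were Ifi30 (3.29), the thiol reductase of antigen processing, and Gusb (2.80), a glucuronidase. The lowest with TMM scaling were Gaa (-1.41), the acid glucosidase of glycogen, Smpd1 (-1.35), the acid sphingomyelinase, and Ppt2 (-0.93), which with library size alone were at -0.11, -0.05 and 0.37 and not called. Ctbs, a chitobiase, was called lower in moderate mice (-0.95) and higher in severe against moderate (0.57), and its severe log2 fold change of -0.38 turned to 0.93 with library size alone.

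Of 29 tested membrane proteins other than Lamp1 and Lamp2, 11 were higher and 1 lower in moderate and 13 higher and 5 lower in severe mice. In the severe model the highest were Cd68 (5.31), a LAMP-family protein of macrophages, Mcoln2 (4.31), a cation channel, and Laptm5 (3.57), a protein of blood cell lysosomes. The lowest were Mfsd8 (-1.31), Abcb9 (-1.26) and Tmem106b (-0.70) with TMM scaling, and with library size alone these 3 were at -0.01, 0.05 and 0.60, the last called higher. Of the 21 tested subunits of the vacuolar ATPase, the proton pump that acidifies lysosomes, 9 were higher and 2 lower in moderate and 9 higher and 3 lower in severe mice. Atp6v0d2 (5.91) and Tcirg1 (3.45), both subunits of the osteoclast and macrophage pump, and Atp6ap2 (1.83) rose most in severe mice, and Atp6v1g1 (-1.26), Atp6v0e2 (-0.94) and Atp6v0a1 (-0.47, not called) were lowest and turned to 0.03, 0.35 and 0.84 with library size alone. Npc2, Gm2a and Psap, listed here as activator proteins, were all higher in severe mice (1.78, 1.18 and 0.80), and Npc2 and Gm2a also in moderate mice.

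The TFEB family moved in both directions. Tfeb fell in both models, from 57.6 ± 4.92 CPM (SD, n = 3) in ACTA1-MCM/+ and 52.9 ± 4.32 CPM in FLExD/+ mice to 16.7 ± 1.91 CPM in moderate and 8.53 ± 1.49 CPM in severe mice. Its log2 fold change was -1.78 (SE 0.13, adjusted p = 6.82e-08) in moderate and -2.75 (SE 0.13, adjusted p = 3.98e-10) in severe mice, and it was also called lower with library size alone (-1.18 and -1.46). Tfec, the member of the family found in macrophages, was higher in both (3.05 and 4.43) and Tfe3 in severe mice (0.83), while Mitf was higher in moderate mice (0.94) and lower in severe against moderate (-0.61, turning to 0.09 with library size alone). Among 11 genes of sorting to the lysosome, 3 were higher and 3 lower in moderate and 5 higher and 3 lower in severe mice, beside 24.4% and 17.0% of all tested genes in moderate and 32.9% and 27.9% in severe mice. Lrp1 (1.45), M6pr (1.11), the small mannose 6-phosphate receptor, and Vps29 (0.80) were highest in severe mice. Sorl1 (-2.31) and Sort1 (-1.15), a progranulin receptor, were lowest with Gnptg (-0.68). With library size alone Sorl1 was also called lower (-1.0), whereas Sort1 and Gnptg turned to 0.15 and 0.63.

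**Figure D4:**
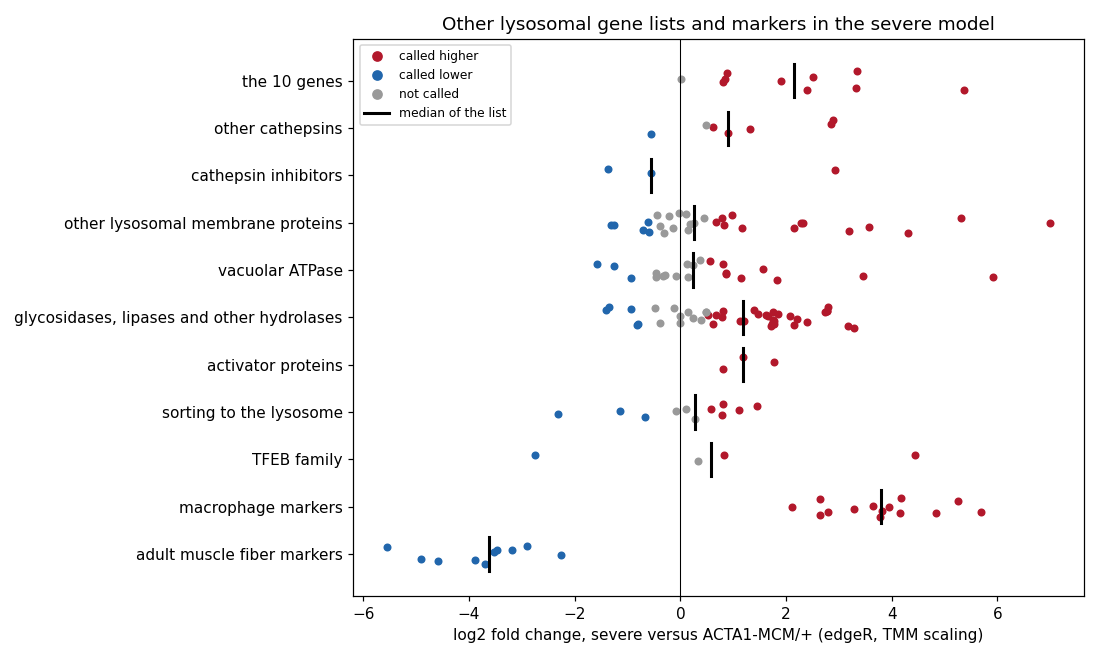
Log2 fold change between severe and ACTA1-MCM/+ mice (x axis, edgeR with TMM scaling) of each tested gene in the lysosomal lists and 2 marker lists (y axis), coloured by call, with the list median as a black bar. The medians are 2.14 for the 10 genes, 0.90 for other cathepsins without the placental ones, 1.19 for hydrolases and 3.79 for macrophage markers, and Tfeb (-2.75) is the blue point of the TFEB family.

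The calls depend on how libraries were scaled to each other. With library size alone all 10 genes were called higher in both models, and the same was so with limma on log2(TPM + 1), where the median of all tested genes was 0.65 and 1.39 (library size) or 0.29 and 0.79 (TPM) in moderate and severe models. Exons of some of the genes overlap other genes in GENCODE M21 (34.4% of exonic bases in Ctsd, 26.8% in Ctsl, 12.8% in Ctsb and 9.31% in Lamp1). Sequence alone cannot assign a read from there to 1 gene. The counts were made on another annotation, and whether it held the overlapping genes was not checked. Counts of Ctsl and Lamp1 were whole in all 12 mice, without a sign that reads were divided between genes. Those of Ctsb were not whole in 12 of 12 mice and those of Ctsd in 10. The overlapping gene is on the same strand for Ctsd, on the other strand for Ctsb and Lamp1, and Ctsl overlaps genes on both strands. Counting by strand would not separate genes on the same strand. For those on the other strand, the sources used here do not state whether reads were counted by strand.

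**Figure D5:**
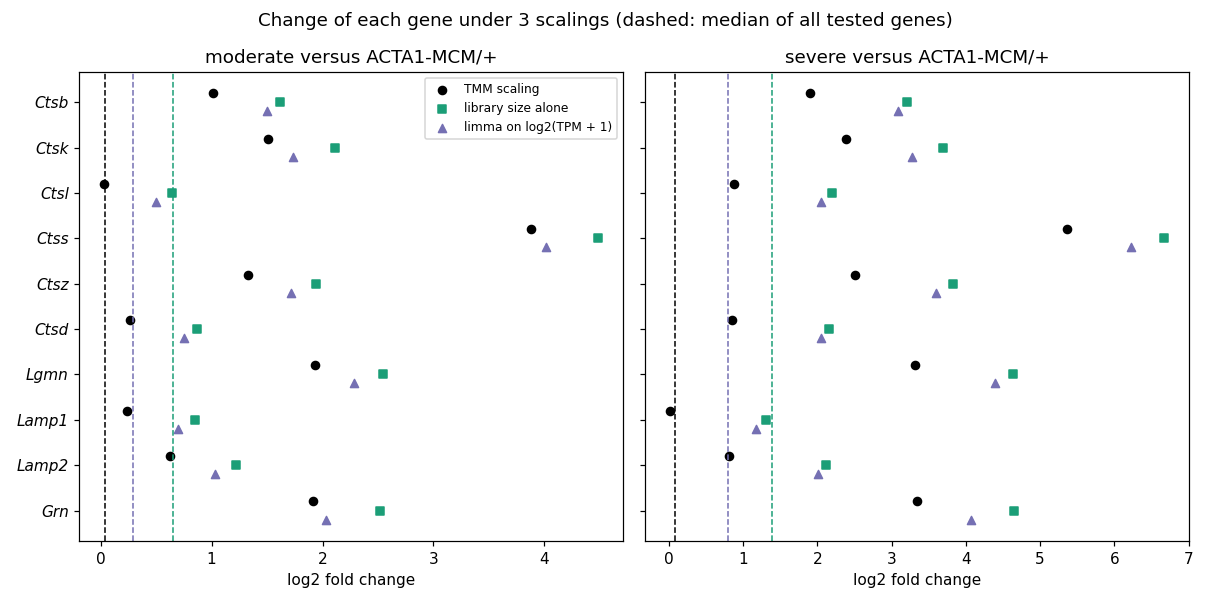
Log2 fold change of each gene (x axis) in moderate (left) and severe (right) mice against ACTA1-MCM/+ mice with TMM scaling (circles), library size alone (squares) and TPM (triangles), with dashed lines at the median of all tested genes under each. In the severe model Lamp1 lies beside the dashed line for TMM scaling and for library size, while Ctss lies farthest to the right under all 3.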

How the data were processed

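Expected counts per gene were deposited by the authors, who mapped single-end 50-base reads of polyA RNA with RSEM 1.2.4, modified to call Bowtie, and TopHat2 2.0.8b to a merged annotation on mm10. TPM from the same estimates were also deposited by the authors, and they hold small values above 0 for genes without counts. RSEM divides reads shared by genes, and counts were not whole in 12 of 12 mice for Ctsb, Lamp2 and Grn and in 10 of 12 for Ctsd. Expected counts were rounded and tested with edgeR 4.0.16 under R 4.3.3, with filterByExpr, TMM factors and a robust quasi-likelihood fit of all 12 mice by group, and p-values of the 16679 genes kept were adjusted by Benjamini-Hochberg. DESeq2 1.42.0 and limma 3.58.1 served as alternatives, beside other scalings, filters and fold thresholds and leaving out each mouse in turn.

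The genes and all lists were chosen with earlier results of these data known. Of each lysosomal list, genes with a mean of at least 1 CPM are named if among the 3 highest or 3 lowest in the severe model or called in opposite directions. A gene that this rule also names is not reported here. Likeness was computed among genes with a mean of at least 10 CPM. The 3 mice of a group are separate animals, and no replicate number pairs mice between groups. Positions come from GENCODE M21 on GRCm38 and promoter sequences from RefSeq (GRCm38.p6). The tests were tried on simulated counts first. The depth of 23796902 to 29136403 counts puts 3 counts at 0.0676 to 0.155 CPM, which covers counting error only. Figures were drawn with matplotlib 3.10.9.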

Additional observations from a re-analysis of the deposited data

How the results depend on the processing

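No paired analysis was possible because every mouse is a separate animal with a label of its own, and the numbers 1 to 3 used here only name mice within a group. The counts of genes called moved beyond 1.5 times only at a log2 fold threshold of 1, where 4 of the 10 genes exceeded it between severe and moderate in place of 8. With each mouse left out in turn, 0 of the 10 genes were called between FLExD/+ and ACTA1-MCM/+, 7 in moderate mice, 9 in severe mice and 8 between severe and moderate, and no call of any of the 10 genes changed. With library size alone and with limma on log2(TPM + 1), Ctsl, Ctsd and Lamp1 were also called higher in moderate mice, Lamp1 in severe mice and Lamp2 between severe and moderate. The signs of the 10 genes turned under alternatives only where neither value was called. Among the other genes named, directions turned under the same 2 scalings, which put the median of all genes above 0. In severe against ACTA1-MCM/+ mice, library size alone and limma on log2(TPM + 1) gave, respectively, 0.84 and 0.79 for Atp6v0a1, 0.35 and 0.11 for Atp6v0e2, 0.74 and 0.64 for Cst3, 0.93 and 0.82 for Ctbs, 0.74 and 0.59 for Ctsf, 0.63 and 0.46 for Gnptg, 0.37 and 0.22 for Ppt2, 0.15 and 0.15 for Sort1, and 0.6 and 0.72 for Tmem106b, and between severe and moderate 0.09 and 0.13 for Mitf. Library size alone also gave 0.05 for Abcb9 and 0.03 for Atp6v1g1 in severe mice and 0.6 for Atp6v0e2 and 0.01 for Gnptg in moderate mice. With 3 mice a group, differences of Lamp1, Ctsd and Lamp2 near 0.2 on the log2 scale had adjusted p-values between 0.0525 and 0.0833 and are not resolved at this number of mice.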

Other observations

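The placental cathepsins, a cluster of 9 cathepsin genes on chromosome 13 between 60798250 and 61570127 that is known from the placenta, held 2 genes that passed the filter, Ctsj and Cts6. Both had 0 counts in all 6 single-transgenic mice. Ctsj was at 5.74, 2.76 and 4.08 CPM in moderate and at 1.10, 2.05 and 1.86 CPM in severe mice. Cts6 was at 3.22, 1.48 and 2.90 CPM in moderate and at 0.541, 1.32 and 0.990 CPM in severe mice. Against the highest control floor of 3 counts (0.155 CPM, per library), the moderate means were at least 27.1-fold higher for Ctsj and at least 16.3-fold higher for Cts6, and the severe means at least 10.8-fold and 6.13-fold higher. Both were called lower in severe against moderate (log2 fold change -1.33 with SE 0.32 and adjusted p = 0.00605 for Ctsj, -1.42 with 0.38 and 0.0112 for Cts6, edgeR), opposite to the 8 cathepsin, legumain and progranulin genes called there, but with library size alone neither call remained (-0.65 and -0.74).

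The endogenous inhibitors of cysteine cathepsins were split. Of the 3 tested, Cstb, the cytosolic cystatin B, rose with the cathepsins from 3.52 ± 1.04 CPM (SD, n = 3) in ACTA1-MCM/+ mice to 13.4 ± 0.864 CPM in moderate and 26.8 ± 3.89 CPM in severe mice. The secreted cystatins Cst3 and Cst6 were called lower in severe mice (log2 fold change -0.56 and -1.38, SEs 0.09 and 0.14), where with library size alone Cst3 turned to 0.74 and Cst6 was at -0.08 and not called.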
